A study of Mus musculus with 5 samples.

Results

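The EGF-family ligands and ERBB receptors were followed as 10 genes, 7 ligands (Egf, Tgfa, Areg, Ereg, Btc, Hbegf and Nrg1) and 3 receptors (Egfr, Erbb2 and Erbb3), taken by symbol from a table of 23857 genes. All 10 were listed. Bulk RNA sequencing had been done on sorted YFP-positive stromal cells of the oviduct (the fallopian tube) from females described as young adult, with 1 mouse per library. The 2 control mice (numbered 2 and 3) carried Pdgfra-Cre, a recombinase under the promoter of the mesenchymal gene Pdgfra, and the Rosa26-YFP reporter R26Y. The 3 experimental mice (numbered 1, 2 and 3) carried Pdgfra-Cre, R26Y and Esr1(fl/fl), floxed alleles of the gene of estrogen receptor alpha, and are called Esr1 conditional knockout (cKO) below. Both groups thus share Cre and reporter, YFP marks cells in which Cre has acted, and strain and stage of the estrous cycle are not given in the sources used here.

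The ligands are made as membrane-anchored precursors that metalloproteases of the ADAM family release. EGF, TGF-alpha, amphiregulin (Areg), epiregulin (Ereg), betacellulin (Btc) and HB-EGF (Hbegf) bind EGFR. Neuregulins bind ERBB4, and some of them, such as that of Nrg1, bind ERBB3 too. ERBB2 has no known ligand and ERBB3 has little kinase activity of its own, so both signal in dimers with a partner. The dimers activate the RAS-ERK and PI3K-AKT cascades. In the female reproductive tract, ligands of this family are known as signals between stroma and epithelium, and several of them respond to ovarian steroids.

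Values are TPM, transcript abundance per length, scaled to the same total in every library. Esr1 was at 83.3 and 77.6 TPM in control mice 2 and 3 and 28.9, 85.0 and 170 TPM in cKO mice 1, 2 and 3, so it lay below both controls in 1 of 3 libraries labelled knockout. Pdgfra was at 188 to 225 TPM in the controls and 165 to 298 in the cKO mice. Gene-level values do not show whether floxed sequence was missing, and every direction below is that of libraries labelled cKO against control. Estimated from the steps between low values, depth was 48.4% to 82.8% of that of control mouse 2 in the other libraries. Stromal markers (9 genes, led by Dcn) summed to 23727 and 19175 TPM in the controls and to 16283, 12764 and 14739 TPM in cKO mice 1, 2 and 3, lower in every cKO library, with 4 of the 9 genes below both controls in all 3. All 9 were above 0 in every library. Epithelial markers were present too. Their sum without Ovgp1, the gene of oviductin (11 genes), was 846 and 933 TPM in the controls and 682, 1521 and 2111 TPM in cKO mice 1, 2 and 3. Ovgp1 itself was at 2273 and 2463 TPM in the control libraries and 1522, 10655 and 11258 TPM in the same cKO mice. Immune markers (9 genes, Lyz2 highest) summed to 2838 and 3419 TPM in the controls and to 2275, 1436 and 885 TPM in the cKO mice, and dissociation-induced genes (12) to 11133 and 12505 TPM against 11793, 7132 and 5969 TPM. Mast cell markers (7) summed to 366 and 428 TPM in the controls against 158, 155 and 172 TPM in the cKO mice, and mesothelial markers (6) to 511 and 411 against 171, 232 and 248.7 TPM. Granulosa and cumulus genes (9) summed to 129 and 177 against 289, 357 and 371 TPM. The sums of stromal, immune, mast cell and mesothelial genes thus lay below both controls in every cKO library, as Egf, Areg and Btc did. Of single genes, 7 of 9 immune, 5 of 7 mast cell and 4 of 6 mesothelial genes did so. The sum of granulosa and cumulus genes lay above both controls, as did 5 of its 9 genes. Of all genes tested, 21.9% lay below both controls in all cKO libraries and 11.9% above. The part of these cell types in the members' values was not tested. Across the 5 libraries, endothelial markers (8) to 165 to 261, smooth muscle markers (7) to 426 to 628, ciliated cell genes (7 of 8 listed) to 343 to 637 and glial genes (9) to 24.9 to 95.2 TPM. In such bulk samples fewer cells of a type and less RNA per cell cannot be told apart.

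The sequences before the transcription start are shown for Areg, Btc and Egf, the 3 members that lay below both controls in every cKO library, and for Egfr, the most abundant member. Sequences are from RefSeq for GRCm38.p6 (the same assembly as mm10), which had a promoter for 6 of the 10 members. Each run holds the 250 bases before the start, 5′ to 3′ on the gene's strand. Capitals mark a cAMP response element (CRE, TGACGTCA) or a single arm of the estrogen response element (GGTCA or its reverse complement TGACC).
Areg, chr5:91139349-91139598, plus strand: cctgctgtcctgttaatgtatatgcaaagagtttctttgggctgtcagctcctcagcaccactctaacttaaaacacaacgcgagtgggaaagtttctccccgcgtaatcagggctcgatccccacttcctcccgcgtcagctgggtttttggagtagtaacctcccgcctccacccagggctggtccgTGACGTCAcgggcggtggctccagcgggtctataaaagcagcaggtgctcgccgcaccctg
Btc, chr5:91402995-91403244, minus strand: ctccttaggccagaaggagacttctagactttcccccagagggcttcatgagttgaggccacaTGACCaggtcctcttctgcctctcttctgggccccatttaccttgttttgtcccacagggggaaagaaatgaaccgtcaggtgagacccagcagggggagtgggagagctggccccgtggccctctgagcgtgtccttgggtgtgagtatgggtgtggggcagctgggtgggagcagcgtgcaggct
Egf, chr3:129755323-129755572, minus strand: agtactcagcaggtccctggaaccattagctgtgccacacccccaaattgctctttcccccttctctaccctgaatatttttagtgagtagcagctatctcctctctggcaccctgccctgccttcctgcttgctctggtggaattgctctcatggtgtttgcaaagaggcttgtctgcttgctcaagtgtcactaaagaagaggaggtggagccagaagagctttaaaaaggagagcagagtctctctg
Egfr, chr11:16751953-16752202, plus strand: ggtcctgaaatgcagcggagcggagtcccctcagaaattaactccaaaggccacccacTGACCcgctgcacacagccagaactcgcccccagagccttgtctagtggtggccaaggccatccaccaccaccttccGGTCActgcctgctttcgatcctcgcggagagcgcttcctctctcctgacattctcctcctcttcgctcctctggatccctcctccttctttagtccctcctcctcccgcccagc

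Motifs were searched on both strands in 300 bases, from 250 before to 50 after each start, and an arm can lie within a full element. The full estrogen response element, GGTCA and TGACC with a spacer of any 3 bases between them, was in 0 of the 6 members' promoters and in 0.0700% of all 32851 promoters in the table. The single arm was in 3 of the 6 (Areg, Btc and Egfr) and in 40.5% of all promoters. In Egfr it occurred at -192 and -115, in Btc at -187 and in Areg at 25 (past the printed run), counted to its first base from the start. The CRE occurred in Areg alone among the 6, at -61, and in 1.79% of all promoters. The AP-1 letters TGANTCA were in 0 of the 6 and in 7.81% of all promoters. A match in these letters is a description of the window and says nothing of binding.

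Hbegf and Tgfa were the most abundant ligand transcripts, and Egfr the most abundant receptor transcript. Over the 5 libraries the mean levels of the ligands ran from Hbegf (19.0 TPM) and Tgfa (17.3) through Areg (4.90), Btc (2.81), Nrg1 (1.83) and Egf (1.57) to Ereg (1.00). Only Tgfa and Areg, as neighbours in that order, had ranges that did not overlap, 10.1 to 22.7 against 2.66 to 7.61 TPM. Among the receptors, Egfr (mean 74.4 TPM, range 39.2 to 107) lay above Erbb2 (21.6, 16.4 to 26.1) without overlap, and Erbb2 and Erbb3 (17.7, 10.2 to 27.2) overlapped. In percentiles of the mean level over listed genes, Egfr stood at 92.6, Erbb2 at 72.3 and Ereg at 22.7. On GRCm38 the gene of Egfr lies at chr11:16752203-16913907, that of Erbb2 at chr11:98412484-98437716, that of Erbb3 at chr10:128567523-128589635, that of Tgfa at chr6:86195038-86275744 and that of Egf at chr3:129677574-129755322.

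**Figure D1:**
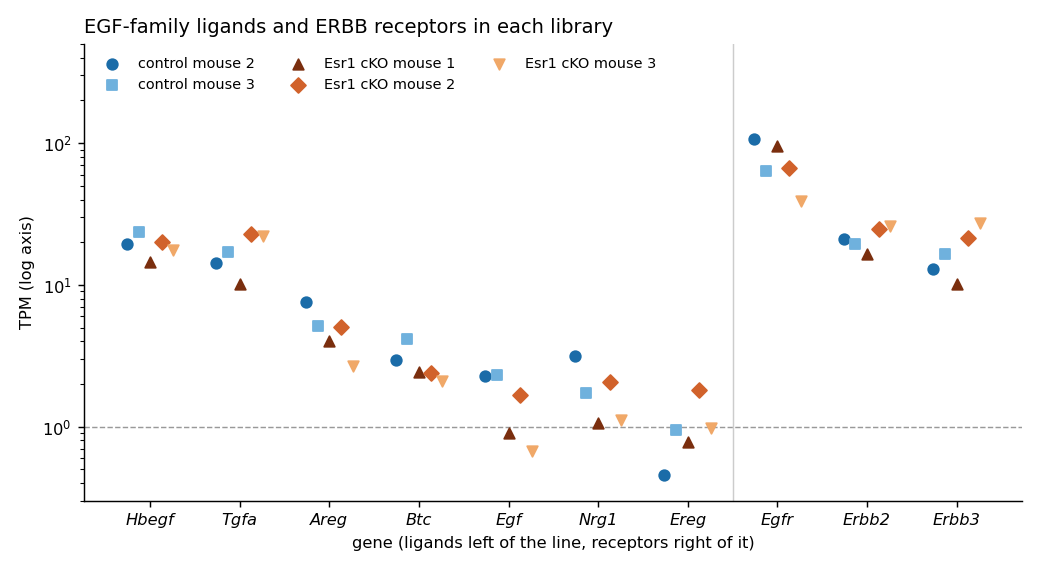
TPM of the 10 members (log axis), 1 point per library, with controls in blue and Esr1 cKO libraries in brown to orange; the dashed line is 1 TPM. Egfr lies above all others at 39.2 to 107 TPM, Hbegf and Tgfa lead the ligands, and Ereg is the lowest at 0.46 to 1.81 TPM.

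The genotype groups were compared with limma on log2(TPM + 1) over the 19292 genes that reached 1 TPM in at least 2 libraries, which included 9 of the 10 members. Ereg did not pass this filter. Of the 9 members, 0 had an adjusted p under 0.05 in limma, against 0.0259% of all genes tested (0.0104% higher and 0.0156% lower in the cKO libraries). At an unadjusted p under 0.05 there were also 0 members, against 13.6% of all genes (3.7% higher and 9.87% lower). Their log2 fold changes (cKO minus control) were negative for 6, namely 5 of the 6 tested ligands and Egfr, and positive for 3, Tgfa, Erbb2 and Erbb3, while 52.2% of all genes tested had a negative value. The median over the 9 was -0.38, and that of all genes tested was -0.022. The members' median depended on the low members, being 0.12 over Hbegf, Tgfa and the 3 receptors, which have a mean of at least 5 TPM, and -0.14 after quantile normalization. Egf, Areg and Btc, 3 of the 9, lay below both controls in all cKO libraries, as did 21.9% of all genes tested, and 0 lay above, as did 11.9%. In either direction the groups did not overlap for 3 of 9 members and for 33.9% of all genes, so the members' count is near the background and is no result about them.

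Among the ligands of EGFR, Egf itself was low. It was at 2.27 and 2.32 TPM in control mice 2 and 3 and 0.91, 1.68 and 0.67 TPM in cKO mice 1, 2 and 3, without overlap. The controls were nearly equal while the cKO mice differed among themselves by up to 0.69 on the log2 scale, as much as the groups did. Its log2 fold change of -0.69 (standard error 0.31) had a 95% interval from -1.43 to 0.049 (limma, adjusted p 0.387, exact permutation p 0.2, two-sided). Its lowest values rest on about 31.6 and 32.4 reads in cKO mice 1 and 3, a counting error of 17.8% and 17.6% (1 SD). The value was -1.10 with a pseudocount of 0.1 and -0.23 after quantile normalization.

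Areg encodes amphiregulin, a ligand induced by cAMP and by growth stimuli in many cells. It was at 7.61 and 5.13 TPM in the control libraries and 4.05, 5.07 and 2.66 TPM in cKO mice 1, 2 and 3. The groups did not overlap, but cKO mouse 2 lay just below control mouse 3, by less than the counting error of either library (11.4% and 12.6%). For Areg the fold change was -0.59 on the log2 scale (standard error 0.31), with a 95% interval from -1.32 to 0.14 (limma, adjusted p 0.427, exact permutation p 0.2). Without control mouse 2 it was -0.35, and without control mouse 3 it was -0.84.

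Btc encodes betacellulin, which binds both EGFR and ERBB4. It was at 2.96 and 4.18 TPM in the control libraries and 2.45, 2.37 and 2.09 TPM in the cKO mice. The 3 cKO libraries lay close together and below both controls, while the controls differed from each other by 0.39 on the log2 scale. Btc had a log2 fold change of -0.46 (limma, standard error 0.26, 95% interval -1.07 to 0.15, adjusted p 0.455). An exact permutation test gave p 0.1, the smallest that 10 assignments of the libraries allow. Without control mouse 3 it was -0.27, without control mouse 2 it was -0.65, and after quantile normalization it was -0.14.

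Hbegf, whose heparin-binding product is known from embryo implantation, was at 19.4 and 23.4 TPM in the control libraries and 14.6, 20.0 and 17.7 TPM in the cKO mice. The groups overlapped, since cKO mouse 2 lay between the controls. For Hbegf the log2 fold change was -0.29 (limma, standard error 0.21, 95% interval -0.78 to 0.20, adjusted p 0.537), and it was -0.16 without control mouse 3 and -0.42 without control mouse 2. Nrg1, the ligand of ERBB3 and ERBB4, was at 3.17 and 1.72 TPM in the control libraries and 1.07, 2.07 and 1.11 TPM in the cKO mice, again with cKO mouse 2 between the controls. The controls differed by more, 0.62 on the log2 scale, than the groups did (log2 fold change -0.50, limma, standard error 0.33, adjusted p 0.511). Without control mouse 2 the Nrg1 value was -0.20, without control mouse 3 it was -0.81, and after quantile normalization -0.089.

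Ereg, the gene of epiregulin, was the lowest of the 10. It was at 0.46 and 0.95 TPM in the control libraries and 0.78, 1.81 and 0.98 TPM in cKO mice 1, 2 and 3, about 28.6, 39.5, 23.6, 93.4 and 41.3 reads. It was highest in cKO mouse 2 and the groups overlapped. With no filter on low values the log2 fold change of Ereg was 0.35 (limma, standard error 0.29, adjusted p 0.590), so that its sign was opposite to that of Areg, its neighbour on the chromosome.

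Areg, Ereg and Btc form a cluster with Epgn (epigen, a further EGFR ligand outside the 10) on chromosome 5 of GRCm38, from 91027517 to 91402994, a span of 375 kb. In order along it, Epgn was at 1.50 and 0.50 TPM in the control libraries and 0, 0.044 and 0.33 TPM in the cKO mice, about 40.0 and 8.77 reads against 0, 0.98 and 5.85. It was below both controls in all 3, but also below the filter on low values, so no test was made of it in the main comparison. With no filter its log2 fold change was -0.79 (limma, standard error 0.28, adjusted p 0.325). Gm19619, a long non-coding RNA gene between Areg and Btc, was chosen for mention once its values had been seen. It was at 0.99 and 0.91 TPM in the control libraries and 0.17, 0.17 and 0.060 TPM in the cKO mice. Ereg, between Epgn and Areg, was not below both controls in all cKO libraries. Areg and Btc did not reach an adjusted p under 0.05 in limma, and Gm19619 was below the filter.

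Tgfa, the gene of TGF-alpha, differed from the other EGFR ligands in its order over libraries. It was at 14.3 and 17.2 TPM in the control libraries and 10.1, 22.7 and 22.3 TPM in cKO mice 1, 2 and 3, below both controls in mouse 1 and above both in mice 2 and 3. For Tgfa the standard error, 0.36, exceeded the log2 fold change, 0.13 (limma, 95% interval -0.71 to 0.98, adjusted p 0.872). Without cKO mouse 1 it was 0.49 (limma, adjusted p 0.109, over all alternatives 0.109 to 0.997), without mouse 2 it was -0.054 and without mouse 3 it was -0.041. Hbegf exceeded Tgfa by 1.36-fold in each control and by 1.45-fold in cKO mouse 1, and it was lower than Tgfa in cKO mice 2 and 3, at 0.88 and 0.79 of it.

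**Figure D2:**
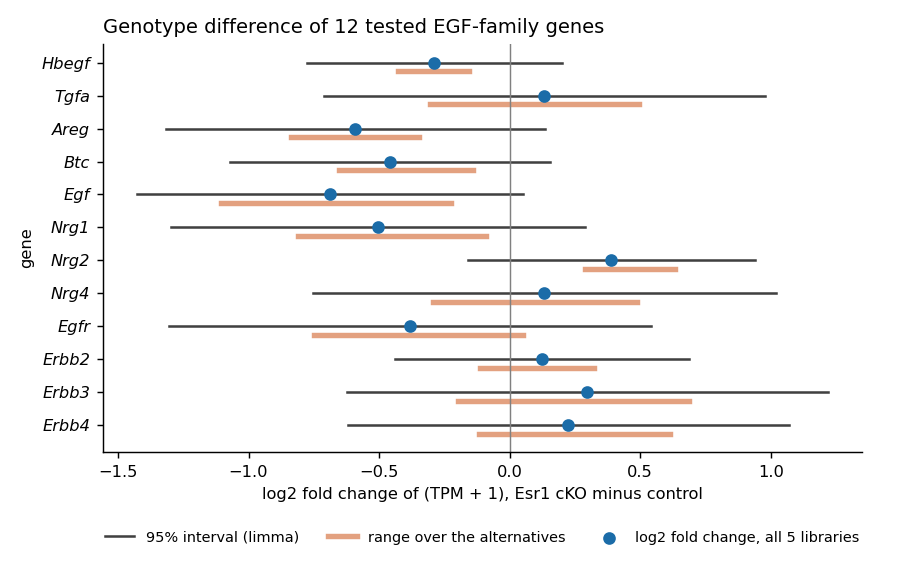
Log2 fold change of (TPM + 1), cKO minus control, for the 12 tested genes of the family, with its 95% interval from limma (grey line) and the range over the alternative settings (orange bar). All 12 intervals include 0, and the orange bars of Tgfa, Nrg4, Egfr, Erbb2, Erbb3 and Erbb4 cross 0.

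Egfr, the receptor of most of these ligands and itself a stromal transcript in many organs, was at 107 and 63.6 TPM in control mice 2 and 3 and 95.1, 67.1 and 39.2 TPM in cKO mice 1, 2 and 3. Only cKO mouse 3 lay below both controls, and the groups overlapped. These values rest on about 4070 to 16500 reads, so counting error (at most 1.57%) is small beside the differences between mice. For Egfr the log2 fold change was -0.38 (limma, standard error 0.39, 95% interval -1.30 to 0.54, adjusted p 0.651). It was -0.67 without cKO mouse 1, -0.045 without mouse 3, -0.013 without control mouse 2 and -0.75 without control mouse 3. It was 0.051 when an epithelial score, averaged on the log2 scale over the 12 markers, was added as a covariate. Relative to Pdgfra in the same library, a ratio formed after the values were seen, Egfr was at 47.4% and 33.9% in the controls and at 31.9%, 29.1% and 23.8% in the cKO mice. In cKO mouse 1 that ratio rests on the highest Pdgfra value, 298 TPM. How many genes separate the groups when divided by Pdgfra was not counted.

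Erbb2, the co-receptor without a known ligand, was at 20.9 and 19.4 TPM in the control libraries and 16.4, 24.8 and 26.1 TPM in cKO mice 1, 2 and 3. The controls were close, cKO mouse 1 lay below both and mice 2 and 3 above both. Erbb2 had a log2 fold change of 0.12 (limma, standard error 0.24, 95% interval -0.44 to 0.69, adjusted p 0.819), ranging from 0.0040 to 0.32 when 1 library was left out.

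Erbb3, a receptor of some neuregulins, was at 13.0 and 16.4 TPM in the control libraries and 10.2, 21.4 and 27.2 TPM in the cKO mice. Its lowest and highest values were both in cKO libraries, 2.67-fold apart. Erbb3 had a log2 fold change of 0.30 (limma, standard error 0.39, 95% interval -0.62 to 1.22, adjusted p 0.727). Without cKO mouse 1 it was 0.69 (limma, adjusted p 0.082, over all alternatives 0.0565 to 0.996), and without mouse 3 it was 0.021. With the epithelial score as a covariate it was -0.20.

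Tgfa, Erbb2 and Erbb3 therefore shared 1 order: below both controls in cKO mouse 1, above both in cKO mice 2 and 3. This order, noticed after the values were seen, held for 13.2% of all genes tested. Of the 5 family genes outside the 10, Nrg4 and Erbb4 had it too. It also held for 7 of the 12 epithelial markers, Epcam, Cdh1, Krt7, Krt8, Krt19, Cldn3 and Ovgp1. Krt18, Pax8 and Ehf had it only in part: they exceeded both controls in cKO mice 2 and 3 but fell between them in mouse 1. Wfdc2 and Cldn4 did not have it. Wfdc2 was under both controls in cKO mice 2 and 3, and Cldn4 slightly so in mouse 3 alone. Erbb3 followed the epithelial sum without Ovgp1 in the order of all 5 libraries, and as a percentage of that sum it was 1.54 and 1.76 in the controls and 1.50, 1.41 and 1.29 in the cKO mice. That is a 1.36-fold range, against 2.67-fold for Erbb3 itself. Tgfa ranged 1.74-fold as a percentage of the same sum and 2.25-fold itself. For Erbb2 the percentage ranged more than the level, 2.00-fold against 1.59-fold, as it did for Egfr, 7.51-fold against 2.73-fold. All these percentages depend on leaving out Ovgp1. With Ovgp1 the 12 markers summed to 3119 and 3396 TPM in the controls and 2204, 12176 and 13368 TPM in cKO mice 1, 2 and 3. The glial genes, some of which mark Schwann cells that also use Erbb3, included Sox10 at 1.34 to 2.76 TPM. Sox10 was lowest in cKO mouse 3, where Erbb3 was highest, while the sum of the 9 glial genes, led by S100b, was highest there. S100b alone accounted for 72.2 of the 95.2 TPM in that library and for 29.5 of the 55.7 TPM in cKO mouse 2. Its level in the other libraries was 4.03 to 4.57 TPM. Of the 9 glial genes, 3 lay below both controls in every cKO library and 2 above. The part of epithelial or glial transcripts in the receptor values was not tested further.

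**Figure D3:**
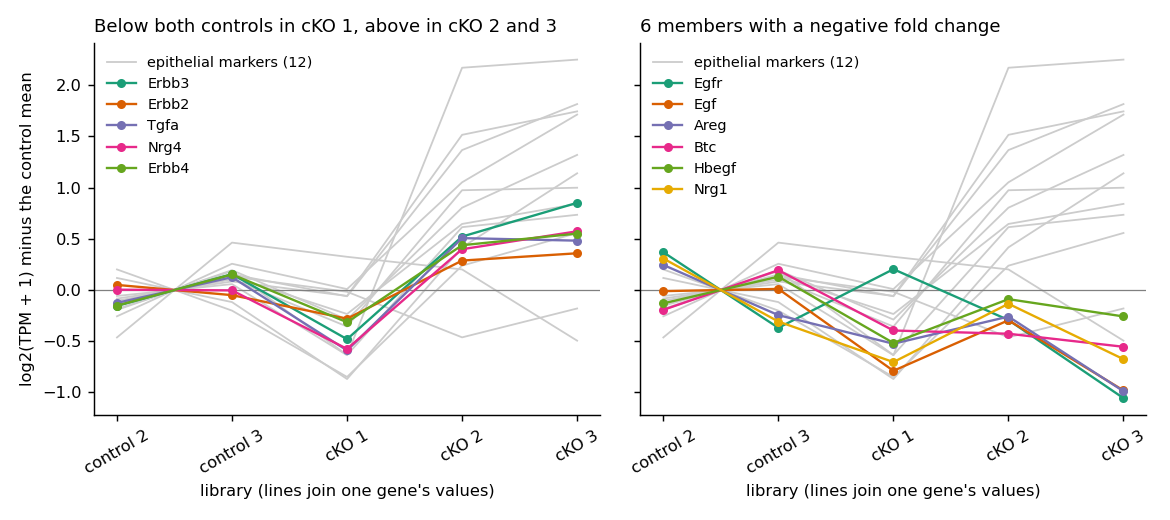
Log2(TPM + 1) minus the control mean in each library, with the 12 epithelial markers as grey lines in both panels. At left Erbb3, Erbb2, Tgfa, Nrg4 and Erbb4 lie below both controls in cKO mouse 1 and above both in mice 2 and 3. At right Egf, Areg and Btc lie below both controls in all 3 cKO libraries, and Egfr, Hbegf and Nrg1 do not.

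The balance among the receptors differed more between mice than between groups. Egfr held 75.4% and 63.1% of the summed TPM of Egfr, Erbb2, Erbb3 and Erbb4 in the controls and 77.6%, 58.2% and 41.4% in cKO mice 1, 2 and 3, so cKO mouse 1 had the highest share of all and mouse 3 the lowest. Erbb3 held 9.20% and 16.3% in the controls and 8.33%, 18.6% and 28.7% in the cKO mice. In cKO mouse 3 Erbb3 was slightly above Erbb2 (ratio 1.04), while in the other libraries it was at 0.62 to 0.86 of it. The ratio of Egfr to Erbb2 was 5.11 and 3.27 in the controls and 5.79, 2.70 and 1.50 in the cKO mice. Erbb4, the fourth receptor, held 0.61% to 2.31%. These shares do not depend on how a library is scaled.

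Among 11 ligand genes (the 7 members, Epgn, Nrg2, Nrg3 and Nrg4), Hbegf and Tgfa together held 56.5% to 67.4% of the summed TPM. The sum itself was 59.6 and 64.2 TPM in the controls and 42.4, 67.0 and 59.3 TPM in the cKO mice, lowest in cKO mouse 1. Areg held 12.8% and 7.99% in the controls and 9.56%, 7.56% and 4.49% in the cKO mice. Egf held 3.81% and 3.61% against 2.14%, 2.51% and 1.13%, below both controls in all cKO libraries, as its TPM was. Epgn did so too, at 2.52% and 0.77% against 0%, 0.066% and 0.55%. The shares of Areg and Btc overlapped between the groups, that of Btc at 4.97% and 6.5% against 5.78%, 3.54% and 3.52%. Above both controls in all cKO libraries were the shares of Ereg (0.77% and 1.48% against 1.84%, 2.70% and 1.66%) and Nrg2 (5.55% and 6.14% against 13.3%, 7.37% and 7.73%). The TPM of Ereg itself overlapped between the groups. In control mouse 3 and cKO mouse 3, Ereg rests on about 39.5 and 41.3 reads, a counting error of 15.9% and 15.6%. Epgn rests there on about 8.77 and 5.85 reads. In TPM, 33.9% of all genes tested did not overlap between the groups, and no such background was counted for shares.

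**Figure D4:**
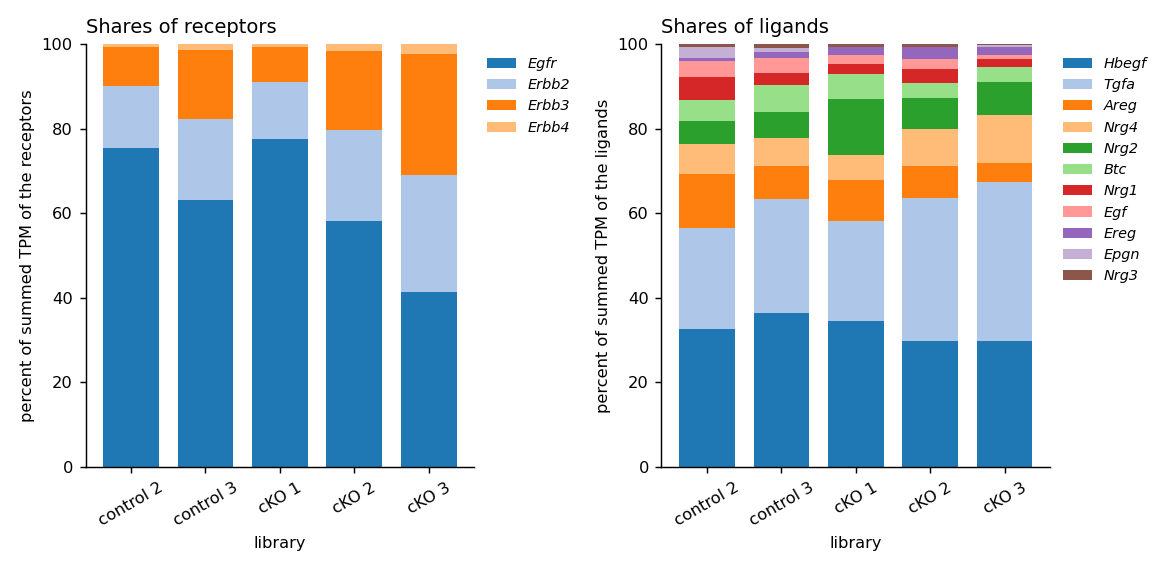
Stacked bars of each gene's percentage of the summed TPM of the 4 receptors (left) and of the 11 ligands (right) in each library. The share of Egfr runs from 77.6% in cKO mouse 1 to 41.4% in cKO mouse 3, and Hbegf and Tgfa hold over 56% of the ligands in every library.

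Of the 5 family genes outside the 10, 3 were tested and 0 passed the threshold. Nrg2, a neuregulin, was at 3.31 and 3.94 TPM in the control libraries and 5.65, 4.94 and 4.58 TPM in the cKO mice, above both controls in all 3. Its log2 fold change was 0.39 (limma adjusted p 0.477 with a standard error of 0.23, and p 0.1 in the exact permutation test), opposite in sign to that of Nrg1. Nrg4 was at 4.20 and 4.18 TPM in the control libraries and 2.49, 5.84 and 6.73 TPM in the cKO mice (log2 fold change 0.13, limma adjusted p 0.879). Erbb4 was at 0.96 and 1.42 against 0.75, 1.95 and 2.19 TPM (log2 fold change 0.22, limma adjusted p 0.775), and its value ran from 0.061 without cKO mouse 3 to 0.49 without cKO mouse 1. Nrg3 was at 0.16 to 0.66 TPM and fell below the filter.

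The genes that release the ligands (10 tested: proteases, their carriers and an inhibitor) had 0 past the threshold. By smallest p, they were led by Adam12, a protease of mesenchymal cells, Timp3, an inhibitor of ADAM proteases, and Rhbdf2, which carries Adam17 to the cell surface. Adam12 was at 34.7 and 18.9 TPM in the control libraries and 11.5, 8.98 and 5.24 TPM in the cKO mice (log2 fold change -1.54, limma, standard error 0.37, adjusted p 0.198). Timp3 was at 162 and 148 TPM in the control libraries and 174, 279 and 274 TPM in the cKO mice (log2 fold change 0.62, limma adjusted p 0.350). Rhbdf2 was at 15.2 and 17.1 against 19.1, 22.5 and 19.6 TPM (log2 fold change 0.32, limma adjusted p 0.459). Adam17 and Adam10, the main sheddases of these ligands, had log2 fold changes of -0.26 and 0.16 with standard errors of 0.15 and 0.18 (limma, adjusted p 0.478 and 0.678). The median over the 10 was 0.019.

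Inhibitors and turnover factors of the receptors (14 tested) also had 0 past the threshold and a median of -0.014. Ptprj, a receptor phosphatase, was at 38.7 and 34.6 TPM in the control libraries and 26.2, 25.97 and 18.8 TPM in the cKO mice (log2 fold change -0.62, limma, standard error 0.21, adjusted p 0.297). Lrig1, which promotes degradation of ERBB receptors, was at 25.6 and 27.3 against 28.8, 34.3 and 42.1 TPM (log2 fold change 0.38, limma adjusted p 0.438). Tns3 was at 59.8 and 58.5 TPM against 54.8, 82.3 and 90.3 TPM (log2 fold change 0.32, limma adjusted p 0.547). Errfi1, an inhibitor of the EGFR kinase, was picked out once its values had been seen. It was at 223 and 240 TPM in the control libraries and 299, 129 and 85.7 TPM in cKO mice 1, 2 and 3, so mouse 1 stood apart from the other cKO mice there as well (log2 fold change -0.63, limma adjusted p 0.553).

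Adaptors and transducers downstream of the receptors (31 tested) had 0 past the threshold, a median log2 fold change of 0.20, 6 genes above both controls in all cKO libraries (11.9% of all genes tested) and 2 below (21.9% of all). Gab1, a docking adaptor of EGFR signalling, was at 33.8 and 35.1 TPM in the control libraries and 43.5, 55.2 and 61.7 TPM in the cKO mice (log2 fold change 0.60, limma, standard error 0.19, adjusted p 0.288). Its relative Gab2 was at 26.7 and 27.9 against 33.6, 43.4 and 35.2 TPM (log2 fold change 0.43, limma adjusted p 0.366). Pdpk1, the kinase that activates AKT, was at 26.6 and 24.6 against 27.6, 46.4 and 50.3 TPM (log2 fold change 0.63, limma adjusted p 0.374).

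Genes that respond to ERK or feed back on it (18 tested) had 0 past the threshold and a median log2 fold change of -0.34. In this list 10 of 18 genes lay below both controls in all cKO libraries and 3 above, beside 21.9% and 11.9% of all genes tested. Fosl1, an AP-1 subunit, was at 8.78 and 11.5 TPM in the control libraries and 3.86, 3.18 and 2.23 TPM in the cKO mice (log2 fold change -1.45, limma, standard error 0.27, adjusted p 0.153). Dusp5, a nuclear ERK phosphatase, was at 57.2 and 74.3 TPM in the control libraries and 32.1, 42.9 and 36.9 TPM in the cKO mice (log2 fold change -0.80, limma adjusted p 0.206). Spry1, an inhibitor of receptor tyrosine kinase signalling, went the other way, at 36.1 and 36.8 TPM in the control libraries and 60.0, 67.6 and 64.3 TPM in the cKO mice (log2 fold change 0.79, limma, standard error 0.15, adjusted p 0.157). Several genes of this kind are also induced by cell dissociation. The dissociation-induced genes given above summed to less in cKO mice 2 and 3 than in the controls, but not in cKO mouse 1. Relative to the control mean on the log2 scale, Egr1 was at -0.070, -0.47 and -1.04 in cKO mice 1, 2 and 3, Phlda1 at -0.11, -0.62 and -0.32 and Myc at -0.46, -0.64 and -1.12, each nearest the controls in cKO mouse 1. Fosl1 was at -1.18, -1.40 and -1.77 and Dusp5 at -0.999, -0.59 and -0.80, so that Dusp5 was farthest from the controls in cKO mouse 1. Also farthest there were Ier3 (-0.36, -0.045 and -0.055), Spry4 (-0.46, -0.29 and -0.42), Etv5 (-0.20, -0.027 and -0.17) and Spred2 (-0.21, 0.023 and -0.045). Spry2 and Spred3 were nearest the controls in cKO mouse 1. The genes of the list thus did not share an order over the cKO mice. Apart from Fosl1 and Dusp5, the genes given in this way were chosen for mention once their values had been seen. The part of dissociation in them was not tested.

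**Figure D5:**
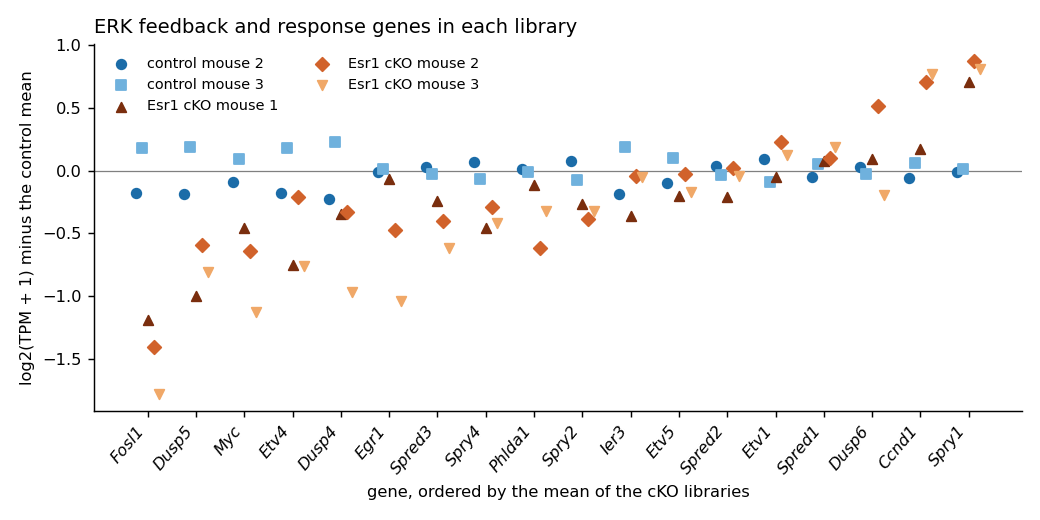
Log2(TPM + 1) minus the control mean for the 18 ERK feedback and response genes, 1 point per library, ordered by the mean of the cKO libraries. Fosl1, Dusp5 and Myc have all 3 cKO points below both controls at the left, and Spry1 and Ccnd1 have all 3 above at the right.

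Likeness over libraries was described for Egf and Areg, the 2 members with the smallest p, as the distance between log2(TPM + 1) values centred over the 5 libraries, among 12606 tested genes with a mean of at least 5 TPM. The nearest genes to Egf were Gm4262 (distance 0.13), P2rx6 (0.20), a subunit of ATP-gated channels, and Opn3 (0.20), an opsin. The nearest to Areg were Gng2 (0.15), a G protein subunit, Podxl (0.16), a sialomucin, and Scara3 (0.21). Podxl was at 104 and 78.0 TPM in the control libraries and 61.7, 69.0 and 47.8 TPM in cKO mice 1, 2 and 3, the same order of libraries as Areg. With 5 libraries and this many genes, close profiles are numerous.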

How the data were processed

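The deposited values are TPM per gene, computed by the authors, with STAR named in the deposited table's name and mm10 per the submitters' processing notes. The aligner version, counter, annotation and filters are not given in the sources used here. Libraries were made with a low-input mRNA kit, per the labels' protocols. Groups and mouse numbers came from the labels. Log2(TPM + 1) values went into limma 3.58.1 under R 4.3.3 (lmFit, eBayes with trend) with genotype as the only term, over 19292 genes with at least 1 TPM in at least 2 libraries. P-values are two-sided and adjusted by Benjamini-Hochberg over all genes tested, with a threshold of 0.05. A log2(TPM + 1) fold change understates that of low genes. Exact permutation tests used the 10 assignments of libraries.

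TPM keeps no total depth. Relative depth came from the steps of low values, and reads per gene (15.1 per TPM and kb in control mouse 2, 7.31 in cKO mouse 1) use the longest GENCODE M21 transcript and are approximate. Counting errors cover counting only, and reads are not independent molecules. Both scripts were tested on simulated data. Motifs and numbers used Python 3.11.15, numpy 2.4.6 and pandas 2.3.3.

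The members and gene lists were chosen with earlier results of these data known, so lists were given no test and are described by counts and medians. Named are the 10 members, the 5 other family genes, Esr1, Pdgfra, the marker genes a result turns on, and of each list genes past the threshold or else the 3 with the smallest p. Exceptions are said beside them, and Adam10 and Adam17 were added for their role. Results were recomputed with a different threshold, pseudocount, filter, scaling or variance model, with library weights, an epithelial covariate, the mouse number as a block, and leaving out each library.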

Additional observations from a re-analysis of the deposited data

How the results depend on the processing

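Over the alternatives, 142 of 149 values of the 9 tested members kept their direction and stayed on the same side of the threshold, 6 changed sign and 1 passed. That count includes alternatives that change only the filter or the variance model. These leave a gene's log2 fold change as it was, so its sign could not change there. With the epithelial covariate Tgfa was -0.31, Egfr 0.051, Erbb2 -0.11, Erbb3 -0.20, Erbb4 -0.12 and Nrg4 -0.29. That covariate moved Esr1 to -0.94, the lowest of its alternatives (limma, 95% interval -1.54 to -0.35, adjusted p 0.183), and Pdgfra to 0.41. Leaving out single libraries gave Tgfa -0.054 to 0.49, Nrg4 -0.088 to 0.49, Esr1 -0.68 to 0.57 and Pdgfra -0.074 to 0.35. Esr1 was 0.15 with library weights. Areg, Btc, Egf and Nrg1 have no value with a mean TPM of at least 5. A fit without 1 control assumes that the remaining control varies like the cKO libraries.

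The mouse number as a replicate block rests on mice 2 and 3. Deviations from the group means correlated at -0.060 and -0.072 between libraries of the same number. The deviations of the 2 controls are exact opposites, so these values cannot show whether same-numbered mice were handled together. The labels give only the shared number. The block gave Egfr -0.67 with an adjusted p of 0.0259 in limma (other alternatives that keep both controls 0.224 to 0.985). It gave Esr1 0.57, Pdgfra -0.074, and 1165 higher and 693 lower genes.

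In the comparison as reported, 2 genes were higher and 3 lower at an adjusted p under 0.05. At a threshold of 0.1 there were 14 and 22. Both counts were 0 with a pseudocount of 0.1 (715 higher and 1518 lower genes at an unadjusted p under 0.05 in limma) and under the filter of a mean of 5 TPM (643 and 746). The higher genes numbered 0 with quantile normalization, median-of-ratios scaling and eBayes without trend (1139, 1289 and 555 at an unadjusted p under 0.05) and 1 with no filter and with robust eBayes. Without Rpph1 and Rn45s 5 genes were lower. Library weights gave 260 and 396, and the epithelial covariate 93 and 82. Leaving out single libraries gave 0 to 1022 higher and 0 to 502 lower genes, the most without cKO mouse 1. Higher genes numbered 0 without control 2, control 3, cKO 2 or cKO 3 (294, 401, 343 and 543 at an unadjusted p under 0.05 in limma), and lower genes 0 without the first 3 of these (738, 666 and 2080). The cause was not tested. At an unadjusted p under 0.05, 713 genes were higher and 1904 lower, against 1139 and 1386 with quantile normalization and 1289 and 1711 with median-of-ratios scaling. Depth limits Ereg, Epgn and Nrg3.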
